A study of Mus musculus with 2 samples.

Results

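The genes described here are 39 interferon-stimulated antiviral genes, compared between CD4 T cells grown under CD103+ Th1 conditions and under Th1 conditions. They are genes that type I interferon is known to induce, listed by symbol. Of the 39, 36 had at least 1 probe set that the platform annotation assigned to a single gene, out of 18193 such genes in all, and 35 of these gave a ratio, out of 11162 genes with a ratio in all. Splenic CD4 T cells of wild type C57BL/6 mice, sorted magnetically to a purity above 98%, were stimulated through the T cell receptor and CD28 for 2 days in either medium and cultured for 3 more days, which makes 5 days in all. The cytokines of the CD103+ Th1 medium were IFN-γ (10 ng/ml), TGF-β (3 ng/ml) and IL-4 (3 ng/ml). The Th1 medium had IL-12 (1 ng/ml) together with a blocking antibody to IL-4 (1 µg/ml). No type I interferon is named for either medium. Each culture was measured on 1 Affymetrix expression array, so the spread between cultures is unknown, no test was possible and no p-value is given. The labels give neither the number of mice nor their age.

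Type I interferons bind the receptor chains encoded by Ifnar1 and Ifnar2. The kinases Jak1 and Tyk2 then signal through a complex that contains the proteins of Stat2 and Irf9 and binds the interferon-stimulated response element in promoters of antiviral genes. IFN-γ uses the receptor chains of Ifngr1 and Ifngr2 and the kinases Jak1 and Jak2, and acts mainly through the gamma-activated site. Many genes answer to both kinds of interferon, so the name of the list does not tell which interferon acted on a cell. In T cells, interferon-stimulated genes serve antiviral defence, and some, such as those of the Schlafen family, are linked to quiescence.

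The promoters of 6 of the listed genes are shown because they hold, or lack, the core letters of the response element. They were chosen after their values were seen, to cover higher genes with and without the letters and a gene of the list that was not higher. Each is the RefSeq window of 250 bases before the gene start, 5′ to 3′ on the gene's strand, in build GRCm38.p6. Capitals mark each match to the letters searched, GAAA and a second GAAA with any 2 bases between them, on either strand, where overlapping matches run together. The windows lie at chr19:34640639-34640888 on the plus strand for Ifit1, chr19:34583279-34583528 on the plus strand for Ifit3, chr12:26456453-26456702 on the minus strand for Rsad2, chr5:120907526-120907775 on the minus strand for Oas1a, chr5:120777660-120777909 on the minus strand for Oas3 and chr11:72301379-72301628 on the plus strand for Xaf1.
Ifit1: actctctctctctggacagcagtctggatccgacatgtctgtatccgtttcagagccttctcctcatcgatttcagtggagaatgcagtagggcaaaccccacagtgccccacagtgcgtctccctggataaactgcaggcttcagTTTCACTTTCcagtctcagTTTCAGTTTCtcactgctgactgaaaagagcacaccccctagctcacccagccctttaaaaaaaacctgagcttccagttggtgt
Ifit3: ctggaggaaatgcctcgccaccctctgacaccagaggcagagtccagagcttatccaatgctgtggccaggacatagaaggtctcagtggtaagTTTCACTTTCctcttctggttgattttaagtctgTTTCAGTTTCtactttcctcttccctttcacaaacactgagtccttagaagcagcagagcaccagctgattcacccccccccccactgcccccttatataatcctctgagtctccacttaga
Rsad2: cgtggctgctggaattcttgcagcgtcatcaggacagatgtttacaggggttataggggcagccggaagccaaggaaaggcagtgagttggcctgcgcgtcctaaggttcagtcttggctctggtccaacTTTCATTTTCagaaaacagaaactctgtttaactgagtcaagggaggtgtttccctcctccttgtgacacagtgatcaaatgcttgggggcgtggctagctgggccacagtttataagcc
Oas1a: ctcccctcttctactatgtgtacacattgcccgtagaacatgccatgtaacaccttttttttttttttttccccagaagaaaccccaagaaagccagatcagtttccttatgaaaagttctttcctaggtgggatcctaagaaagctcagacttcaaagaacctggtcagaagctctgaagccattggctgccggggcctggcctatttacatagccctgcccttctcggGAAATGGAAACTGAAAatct
Oas3: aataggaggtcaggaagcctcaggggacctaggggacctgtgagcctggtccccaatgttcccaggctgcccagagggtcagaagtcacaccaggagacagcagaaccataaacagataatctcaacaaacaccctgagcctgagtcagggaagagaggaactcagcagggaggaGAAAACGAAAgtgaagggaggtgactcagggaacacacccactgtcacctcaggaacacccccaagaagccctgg
Xaf1: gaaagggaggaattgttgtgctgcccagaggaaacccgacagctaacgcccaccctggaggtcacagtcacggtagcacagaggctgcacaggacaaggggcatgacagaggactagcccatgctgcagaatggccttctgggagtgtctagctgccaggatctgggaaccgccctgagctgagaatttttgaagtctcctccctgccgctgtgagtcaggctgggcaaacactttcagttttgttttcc
Ifit1 and Ifit3 carry 2 separate matches each, read on the opposite strand as TTTCACTTTC and TTTCAGTTTC in both genes. Oas1a carries 2 overlapping matches close to its start, Rsad2 and Oas3 carry 1 match each, and the Xaf1 window carries 0.

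The interferon-stimulated genes were, as a group, higher in CD103+ Th1. A gene was called where the signals of its brightest probe set differed by at least 2-fold. A floor of 78.5 arbitrary units, the median signal over both arrays, stood in for background: lower signals were raised to it, genes below it on both arrays have no ratio, and genes below it on a single array have a lower bound, printed as "at least" so many fold. Of the 35 genes with a ratio, 14 passed 2-fold on the side of CD103+ Th1, against 5.04% of all measured genes, and 0 were at least 2-fold lower, against 4.88%. A further 17 lay between equality and 2-fold higher, so that 31 of 35 had a log2 ratio above 0, against 47.4% of all measured genes. Of the 31, 5 had a Th1 signal under the floor. They have a ratio only through CD103+ Th1, which fixed their direction in advance. Ifit1, Rtp4 and Cmpk2, counted among the 14, are of this kind. The listed genes had a median log2 ratio of 0.72, against -0.03 for all measured genes. At 1.5-fold, 20 of 35 were higher, against 12.4% of all measured genes, and 0 lower, against 13.4%. At 4-fold, 1 of 35 was higher, against 0.968%, and 0 lower, against 0.77%. The ratios of the list ran from -0.42 to 4.75, the highest a lower bound, with quartiles at 0.35 and 1.26. The list holds genes that an earlier look at these arrays had already shown to be higher, so its direction is a description and not independent evidence. In such bulk samples, more cells of a type and more RNA per cell cannot be told apart.

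**Figure D1:**
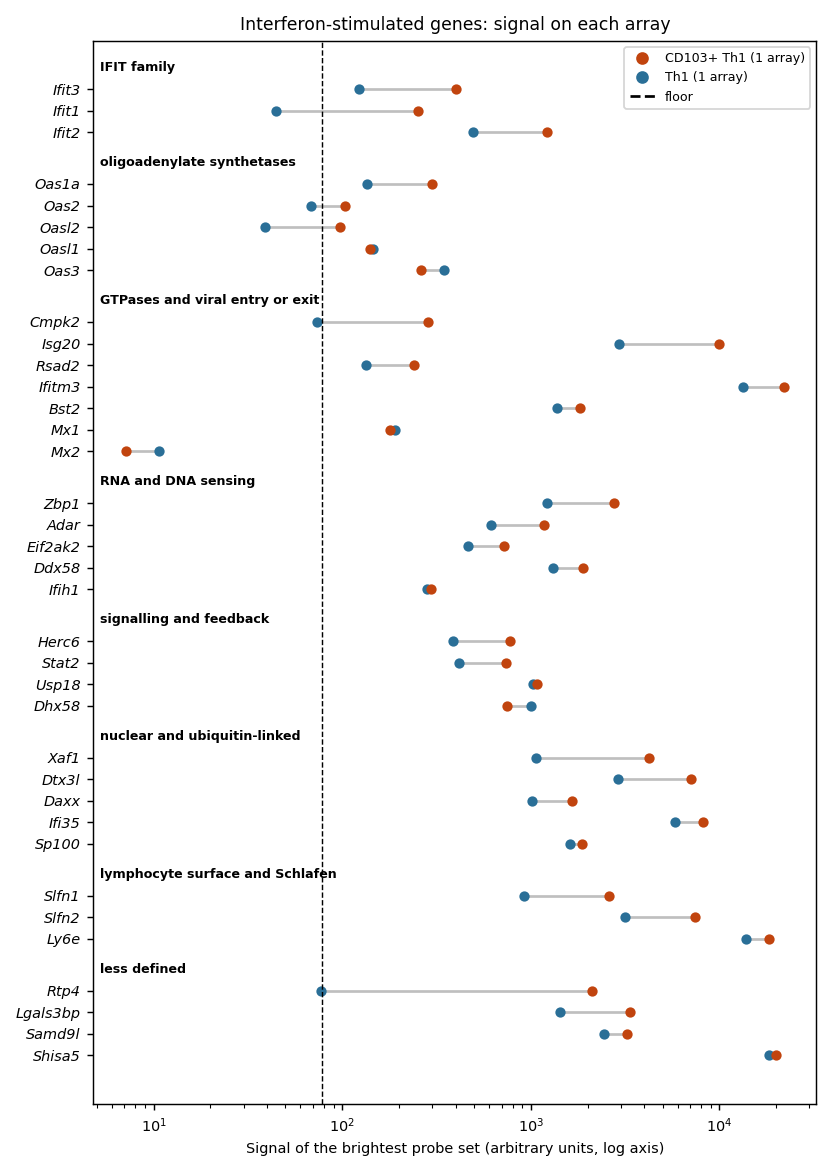
Signal of the brightest probe set of 36 interferon-stimulated genes (x axis, arbitrary units, log scale) on the CD103+ Th1 array and the Th1 array, grouped by role, with the floor as a dashed line. The CD103+ Th1 point lies to the right for most genes, with the widest gap for Rtp4, whereas Mx1, Oas3, Oasl1 and Dhx58 lie the other way, and Mx2 is under the floor on both arrays.

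The difference was also present among genes bright on at least 1 array. Of the 26 listed genes whose brighter signal reached 4 times the floor, 11 passed 2-fold in the same direction, and their median log2 ratio was 0.78. Of all 8114 genes at that brightness, 5.50% did so and the median log2 ratio was -0.01. The cut used the brighter array, so a gene could enter through its high side alone. Ifit3 and Rtp4 reached it only in CD103+ Th1, and Oas3 only in Th1. The cut therefore adds no independent support for the direction. Among the 9 dimmer listed genes with a ratio, 3 were at least 2-fold higher and the median was 0.41, against 3.84% and -0.06 for all 3048 genes below that brightness. In 5 listed genes, Ifit1, Oas2, Oasl2, Rtp4 and Cmpk2, the Th1 signal lay under the floor, and their folds are lower bounds.

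**Figure D2:**
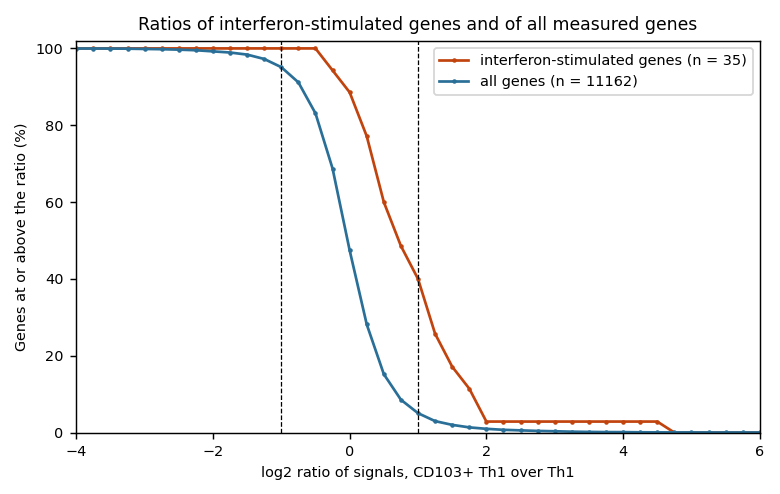
Percentage of genes (y axis) whose log2 ratio of signals, CD103+ Th1 over Th1, is at or above the value on the x axis, for 35 interferon-stimulated genes and all 11162 measured genes, with dashed lines at 2-fold. The curve of the interferon-stimulated genes lies to the right of the other, and their lowest ratio is -0.42.

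Rtp4, which encodes a chaperone that brings G-protein-coupled receptors to the cell surface, had the highest bound of the listed genes, above every measured ratio among them. Its signal was 2109 in CD103+ Th1 and 77.6 in Th1, just under the floor, which makes it at least 26.9-fold higher. The dimmer Rtp4 probe set, at 61.7 in CD103+ Th1 and 5.0 in Th1, was under the floor on both arrays and gave no ratio. With a floor at the 25th percentile its log2 ratio was 4.76, near the 4.75 of the main setting. With a floor at the 75th percentile the bound fell to 2.16.

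The genes of the IFIT family, whose proteins bind viral RNA and block its translation, all passed 2-fold. Ifit3 gave 402 in CD103+ Th1 and 122 in Th1, a 3.30-fold difference. Ifit1 had 253 in CD103+ Th1 and 44.8 in Th1, at least 3.22-fold higher. Ifit2, the brightest probe set of the family, had 1218 in CD103+ Th1 and 495 in Th1, 2.46-fold higher. Each of these genes was read by 1 probe set, and they lie in 1 cluster on chromosome 19, where 0 other coding genes separate Ifit2 from Ifit3. Ifit3 has a near-identical neighbour, Ifit3b, so its signal may include RNA of both. Within the same family, Ifit1bl1 was 10.6-fold higher (965 in CD103+ Th1 against 91.2 in Th1, which is near the floor), while Ifit1bl2 had a log2 ratio of -0.18 (109 in CD103+ Th1 and 124 in Th1).

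The oligoadenylate synthetase genes did not move together. Their enzymes make short adenylate chains on sensing double-stranded RNA, and these activate RNase L. Oas1a was 2.22-fold higher, with 299 in CD103+ Th1 and 135 in Th1. Oas3, from the same cluster on chromosome 5, was 1.32-fold lower (262 in CD103+ Th1 and 346 in Th1). Oas2, the direct neighbour of Oas3, had 104 in CD103+ Th1 and 67.9 in Th1, at least 1.32-fold higher. The oligoadenylate synthetase-like pair Oasl1 and Oasl2, also neighbours, gave 140 in CD103+ Th1 and 145 in Th1 for Oasl1, and 97.7 in CD103+ Th1 and 39.1 in Th1 for Oasl2. Only Oas1a passed 2-fold among the 5 listed genes, although Oasl2 did so with a floor at the 25th percentile, at a log2 ratio of 1.32. These are dim genes, with a highest signal of 346. The relative Oas1b, outside the list, was 2.19-fold higher (660 in CD103+ Th1 and 301 in Th1), and Oas1c had a log2 ratio of 0.79. Near-identical Oas1 copies may share the signal of 1 probe set.

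Among the genes that act on viral entry, nucleotides and exit, Isg20 and Cmpk2 were more than 2-fold higher. Isg20, which encodes an exonuclease that degrades RNA, gave 9963 in CD103+ Th1 and 2927 in Th1, 3.40-fold higher. Cmpk2, a mitochondrial nucleotide kinase gene, had 284 in CD103+ Th1 and 73.5 in Th1, at least 3.62-fold higher, and its other probe set was under the floor on both arrays. Its direct neighbour on chromosome 12 is Rsad2, which encodes viperin, an enzyme that makes a chain-terminating nucleotide from CTP. Rsad2 had 242 in CD103+ Th1 and 134 in Th1, 1.81-fold higher, so it stayed under 2-fold, and a dimmer probe set gave a lower bound of 0.31 on the log2 scale.

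The membrane proteins of this set were bright on both arrays. Ifitm3, which hinders fusion of viruses with endosomes, had 21872 in CD103+ Th1 and 13319 in Th1, 1.64-fold higher. Bst2, which encodes tetherin, a protein that holds budding virus at the surface, had 1833 in CD103+ Th1 and 1382 in Th1, 1.33-fold higher. Of the dynamin-like GTPase genes, Mx1 was near equality and Mx2 gave no ratio. Mx1 had 179 in CD103+ Th1 and 190 in Th1, a log2 ratio of -0.09, and Mx2 had 7.14 in CD103+ Th1 and 10.7 in Th1, under the floor on both.

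Among sensors of foreign or misplaced nucleic acid and their regulators, Zbp1 was the gene whose brightest probe set passed 2-fold. Zbp1, which binds left-handed nucleic acid and can trigger necroptosis, had 2758 in CD103+ Th1 and 1215 in Th1, 2.27-fold higher, and its second probe set gave a log2 ratio of 1.72. Adar, which edits double-stranded RNA and so keeps it from being sensed, had 1178 in CD103+ Th1 and 617 in Th1, 1.91-fold higher, with probe sets from 0.74 to 1.19 on the log2 scale, the highest past 2-fold. Eif2ak2, the gene of the translation-blocking kinase PKR, had 716 in CD103+ Th1 and 467 in Th1, 1.53-fold higher, with 3 probe sets from 0.01 to 0.65. The 3 RIG-I-like receptor genes lay apart. Ddx58, for RIG-I itself, had 1883 in CD103+ Th1 and 1314 in Th1, 1.43-fold higher, while its dimmer probe sets gave log2 ratios of 0.62 and, as a lower bound, 1.31, which is past 2-fold. Ifih1, for MDA5, had 296 in CD103+ Th1 and 282 in Th1, a log2 ratio of 0.07. Dhx58, for the regulator LGP2, was 1.34-fold lower (748 in CD103+ Th1 and 1004 in Th1), with probe sets from -0.65 to 0.13, the highest of these a bound. Of the 13 listed genes with 2 or more measured probe sets, Dhx58 was the exception to a shared direction, which the other 12 had.

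**Figure D3:**
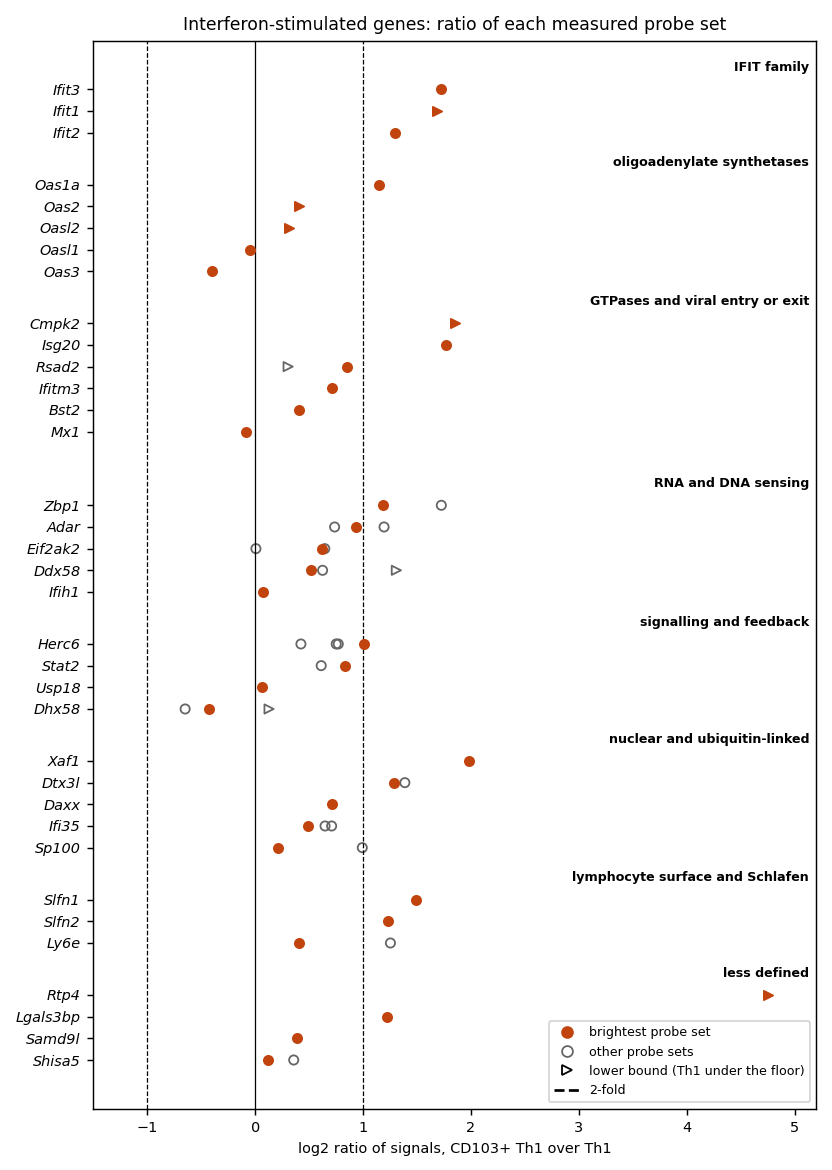
Log2 ratio of signals, CD103+ Th1 over Th1 (x axis), for every measured probe set of 35 interferon-stimulated genes, with the brightest probe set filled, the others open, lower bounds as triangles, and dashed lines at 2-fold. Rtp4 lies furthest right, at a lower bound of 4.75, most genes lie between 0 and 2, and the probe sets of Dhx58 fall on both sides of 0.

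Genes of interferon signalling and its brake were divided. Stat2 had 738 in CD103+ Th1 and 413 in Th1, 1.78-fold higher, and its other probe set gave a log2 ratio of 0.61. Herc6, which in mice encodes the main ligase that attaches ISG15 to proteins, had 778 in CD103+ Th1 and 387 in Th1, 2.01-fold higher, at the threshold, while its other 3 probe sets were under 2-fold and its lowest was 0.42 on the log2 scale. Usp18, whose product removes ISG15 and blocks the type I receptor, had 1078 in CD103+ Th1 and 1032 in Th1, a log2 ratio of 0.06. The gene of ISG15 itself shares its only listed probe set with a second gene and was not analysed here. Ifi44 and Ly6a had no probe set of a single gene in the annotation used and were not analysed here either.

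Among nuclear and ubiquitin-linked genes, Xaf1 and Dtx3l were more than 2-fold higher. Xaf1, whose product antagonises the apoptosis inhibitor XIAP, had 4208 in CD103+ Th1 and 1064 in Th1, 3.95-fold higher. Dtx3l, the ubiquitin ligase partner of PARP9, had 7090 in CD103+ Th1 and 2915 in Th1, 2.43-fold higher, and its other probe set gave 1.39 on the log2 scale. Daxx, a histone chaperone of PML nuclear bodies, had 1656 in CD103+ Th1 and 1009 in Th1, 1.64-fold higher. Ifi35, whose product binds the interferon-induced protein NMI, was 1.41-fold higher, with 8184 in CD103+ Th1 and 5817 in Th1. Sp100, another component of PML bodies, had 1857 in CD103+ Th1 and 1604 in Th1 on its brightest probe set, 1.16-fold higher, and a log2 ratio of 0.99 on the other.

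Both Schlafen genes of the list were more than 2-fold higher. Slfn1 had 2590 in CD103+ Th1 and 924 in Th1, 2.80-fold higher. Slfn2, its direct neighbour on chromosome 11, needed for T cell quiescence in mice, had 7434 in CD103+ Th1 and 3170 in Th1, 2.34-fold higher. Outside the list Slfn8 was 2.24-fold higher (957 in CD103+ Th1 and 428 in Th1) and Slfn9 had a log2 ratio of 0.24, whereas Slfn3, Slfn4 and Slfn5 were under the floor on both arrays. The surface protein gene Ly6e had 18397 in CD103+ Th1 and 13893 in Th1 on its brightest probe set, 1.32-fold higher, and a log2 ratio of 1.25 on its other one.

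Of the remaining listed genes, Lgals3bp passed 2-fold. Lgals3bp, which encodes a secreted galectin-binding glycoprotein, had 3347 in CD103+ Th1 and 1434 in Th1, 2.33-fold higher. Samd9l, a restriction factor gene, had 3219 in CD103+ Th1 and 2453 in Th1, 1.31-fold higher. Shisa5, a gene of a membrane protein linked to apoptosis, had 19887 in CD103+ Th1 and 18347 in Th1, 1.08-fold higher.

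Receptor, kinase and regulator genes of the interferon pathways lay higher in CD103+ Th1 as well. Of 28 pathway genes with a ratio, 7 were at least 2-fold higher, or 25%, against 5.04% of all measured genes. At least 2-fold lower were 0, against 4.88%. The median log2 ratio of the 28 was 0.59, against -0.03 for all measured genes. Irf9, the partner of STAT2, had 3064 in CD103+ Th1 and 957 in Th1, 3.20-fold higher. The type I receptor chains were less than 2-fold apart on their brightest probe sets, with 1168 in CD103+ Th1 and 817 in Th1 for Ifnar1, and 2855 in CD103+ Th1 and 1906 in Th1 for Ifnar2, although another Ifnar2 probe set reached a log2 ratio of 1.32. Ifngr2, the signalling chain of the IFN-γ receptor, whose expression Th1 cells are known to lose, had 920 in CD103+ Th1 against 115 in Th1, which is near the floor, an 8.0-fold difference. Its second probe set gave a log2 ratio of 1.51. Ifngr1, the ligand-binding chain, was 1.56-fold higher.

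Further down the same pathways, the brightest Jak2 probe set was 2.61-fold higher and the other lay at 0.65 on the log2 scale. Irf1 was 4.41-fold higher, Irf7 3.46-fold and Irf8 3.29-fold, with the other Irf8 probe set under 2-fold at 0.72 on the log2 scale. The feedback inhibitor gene Socs3 was 3.79-fold higher and Socs1 1.91-fold. Mavs, the adaptor of the RIG-I-like receptors, was 1.99-fold higher, just under the threshold, and its other probe set lay just above it at 1.15 on the log2 scale. The pathway genes with log2 ratios below 0 were Irf5 (-0.63), Ptpn2 (-0.47) and Cgas (-0.28), and each had a dimmer probe set above 0, at 0.18 for Irf5, 0.20 for Ptpn2 (a lower bound) and 0.10 for Cgas.

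**Figure D4:**
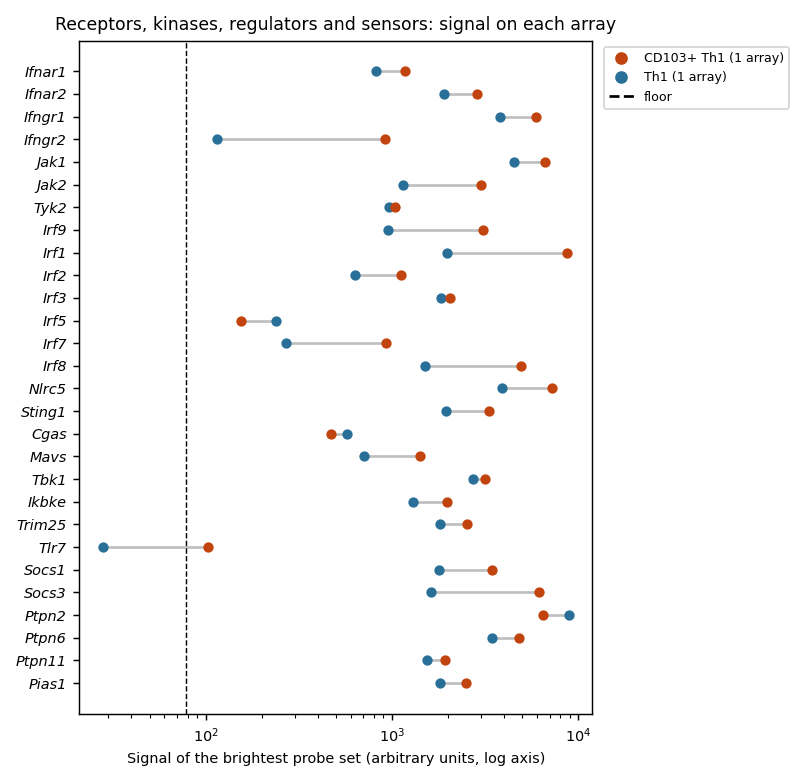
Signal of the brightest probe set (x axis, arbitrary units, log scale) of 28 interferon pathway genes on the CD103+ Th1 array and the Th1 array, with the floor as a dashed line. Ifngr2 shows the widest gap among genes above the floor on both arrays, and Irf5, Cgas and Ptpn2 lie lower in CD103+ Th1.

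Apart from Ifng and Ifnz, the interferon genes themselves gave little signal. Of 10 interferon genes with a probe set, 7 were under the floor on both arrays, among them Ifnb1, with 60.3 in CD103+ Th1 and 57.3 in Th1. Ifna1 reached 85.9 in CD103+ Th1, just above the floor, against 49.1 in Th1. Ifnz had 326 in CD103+ Th1 and 287 in Th1. Ifng was 10.8-fold lower, at 529 in CD103+ Th1 and 5711 in Th1. The culture with the lower Ifng signal had IFN-γ in its medium and the higher interferon-stimulated genes. Effects of the medium components, of secreted products and of variation between single cultures cannot be told apart in this design.

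A list of genes known to answer to IFN-γ was set beside these genes. Of 22 such genes with a ratio, 8 were at least 2-fold higher, or 36.4%, against 5.04% of all measured genes. At least 2-fold lower were 0, against 4.88%. The median log2 ratio of the 22 was 0.80, against -0.03 for all measured genes. The GTPase gene Iigp1 led at 15.7-fold higher, followed by Irgm1 at 6.48-fold. The chemokine genes Cxcl9, Cxcl10 and Cxcl11, which IFN-γ induces in many cell types, were under the floor on both arrays. This list holds 0 of the 39 genes, but shares Irf1, Socs1 and Nlrc5 with the pathway list. Sequence relatives of the listed genes, which include many that interferon does not induce, were compared too. Of 33 with a ratio, 5 were at least 2-fold higher, or 15.2%, against 5.04% of all measured genes. At least 2-fold lower were 0, against 4.88%, and the median was 0.42, against -0.03. The 5 were Ifit1bl1, Dtx4 (at least 4.17-fold), Herc3 (2.27-fold), Slfn8 and Oas1b. The second probe set of Herc3 was under 2-fold, at a log2 ratio of 0.49, and that of Dtx4 gave a lower bound of 0.35, which does not reach 2-fold.

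Promoter letters were searched in the RefSeq windows of 250 bases before to 50 after each gene start, on both strands, and a gene counted as a match if any of its windows matched. Of the 39 listed genes, 30 had a window. The response element letters were present in 13 of these 30, against 3.99% of all 27025 genes with a window. The gamma-activated site letters TTCNNNGAA, which read the same on both strands, were present in 9 of the 30, against 9.55% of all genes. Matches of these motifs can overlap, and a match is a run of letters and not a measured binding site.

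The letters were then set against the ratios of genes outside the list. Of 325 such genes with a ratio and the response element letters, 37 were at least 2-fold higher, or 11.4%, against 4.56% of 8745 genes without the letters. For at least 2-fold lower genes the shares were 4.0% with the letters and 4.84% without. The median log2 ratios differed little, at 0.05 with the letters and -0.03 without. Genes outside the list still include genes of the comparison lists, such as Ifit1bl1 and Irgm1. With the gamma-activated site letters the share of higher genes was 5.96%, against 4.70% without them. The highest ratios among the 37 were those of Ifi213 (12.5-fold higher), Ifit1bl1, Gpr15 (at least 8.79-fold), Gzma (8.78-fold) and Tnfsf13b (7.15-fold, and a lower bound of 0.52 on the log2 scale on another probe set). At the other end, Gstt1 was 8.46-fold lower and Emilin2 7.14-fold lower, with the same letters in their windows. These genes were named after their values were seen.

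Within the list the order was the other way round. The 12 listed genes with the response element letters and a ratio had a median log2 ratio of 0.67. Of these, 3 (Ifit1, Ifit3 and Oas1a) were at least 2-fold higher, against 11.9% of all genes with the letters. The 16 without the letters in their windows had a median of 1.11. Of these 16, 9 were at least 2-fold higher, Xaf1 among them, against 4.66% of all genes without the letters. Rtp4 and Zbp1, also at least 2-fold higher, had no window. The ranges overlapped almost fully, from -0.40 to 1.72 with the letters and from -0.05 to 1.98 without. Oas1a and Oas3, shown above, both hold the letters, and lay at log2 ratios of 1.15 and -0.40.

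**Figure D5:**
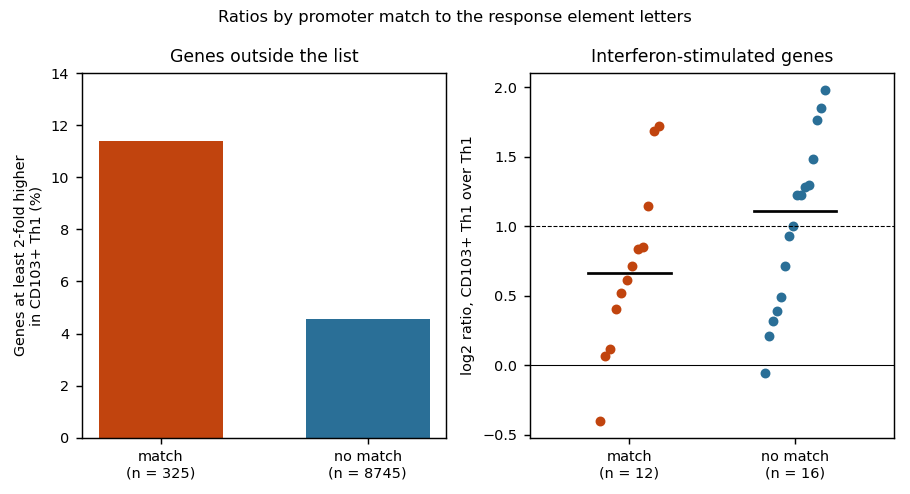
Left, percentage of genes outside the list at least 2-fold higher in CD103+ Th1 (y axis), with and without a match to the response element letters in the promoter window. Right, log2 ratios of signals, CD103+ Th1 over Th1, of single interferon-stimulated genes in the same classes, with medians as bars and a dashed line at 2-fold. The left bars stand at 11.4% and 4.56%, and on the right the genes with a match have the lower median, 0.67 against 1.11.

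Both arrays carried 45037 probe sets, whose median signal was 78.0 on the CD103+ Th1 array and 78.8 on the Th1 array. The number of arrays limits the precision. General T cell markers and Cd4 were present on both arrays: 8 of 9 had a probe set, and all 8 were above the floor. Their summed signal, 70315 in CD103+ Th1 and 64509 in Th1, came mostly from Cd3d, Cd3g and Thy1. Cd4 itself had 1081 in CD103+ Th1 and 973 in Th1, in CD103+ Th1 below the Cd8a and Cd8b1 signals given below. Markers of myeloid and dendritic cells, which can express interferon-stimulated genes strongly, were near or under the floor, apart from Csf1r. Of 6 myeloid genes Csf1r had the highest signals, 118 in CD103+ Th1 and 187 in Th1, above the floor on both. For 5 dendritic cell genes the highest were 79.2 in CD103+ Th1 and 85.6 in Th1, with Itgax, Xcr1 and Ccr9 under the floor on both. Of 4 B cell markers 3 were under the floor on both arrays. Of 4 markers of CD8 T and NK cells, Ncr1 was under the floor, and the summed signal was 6967 in CD103+ Th1 and 3351 in Th1. Cd8a had 2054 in CD103+ Th1 and 466 in Th1, and its 5 measured probe sets ran from 0.24 to 2.16 on the log2 scale. Cd8b1 had 1593 in CD103+ Th1 and 697 in Th1, and Klrk1 3293 in CD103+ Th1 and 2163 in Th1. The part of CD8 T or NK cells in the ratios of the interferon-stimulated genes was not tested.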

How the data were processed

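Total RNA of 2 cultures was labelled with biotin and hybridised to 1 Affymetrix array each, per the labels' protocols. The authors deposited 1 signal intensity for each probe set of an array, not log-transformed, and the submitters' processing notes name GCOS. Its version, the scaling target and any detection calls are not stated in the labels or the table. As the 2% trimmed means were 498 on both arrays, the signals were used unscaled. Affymetrix control probe sets were not analysed here.

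The platform annotation gave the gene names, updated by gene identifier to GRCm38.p6 symbols: 34945 of 45037 had 1 gene (34741 matched the gene table), 932 several and 9160 none listed. Where a gene had several probe sets, the brightest by mean log2 signal stood for it. Ratios are CD103+ Th1 over Th1, with the floor described above. There is no replicate and no test. The rule for named genes was to give every listed gene, and of comparison lists the pathway receptors and up to 6 genes at least 2-fold apart. Exceptions are named in the text for their place in a gene family, as values near the threshold, below 0 or under the floor, or for promoter letters. The genes and lists were chosen with earlier results of these data known. Alternatives were 3 other scalings, other floors, a pseudocount, other probe set choices and thresholds of 1.5-fold and 4-fold. Python 3.11.15, numpy 2.4.6 and pandas 2.3.3 were used, and the ratio step was tested on simulated data.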

Additional observations from a re-analysis of the deposited data

How the results depend on the processing

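The number of arrays limits every value, and no paired analysis was possible because each group has 1 array. Over the 8 alternatives to scaling, floor and probe set choice, the median log2 ratio of the listed genes stayed between 0.71 and 0.89, and 0 listed genes were at least 2-fold lower. In 7 of them the count of listed genes at least 2-fold higher was 13 to 15, out of 30 to 36 with a ratio. In these 7, 4.45% to 6.18% of all genes were at least 2-fold higher. The count was 9 of 24 with a floor at the 75th percentile. There 4 of the 14 lost their ratio because both signals fell under that floor, and Herc6 dropped to 0.72. With that floor 3.73% of all genes were at least 2-fold higher, against 5.04% in the main setting, and 6.50% differed either way, against 9.93%. At 1.5-fold, 20 of 35 listed genes were higher, against 12.4% of all genes, and 25.9% of all genes differed either way. At 4-fold only Rtp4 of the 35 was higher, against 0.968% of all genes, and 1.74% of all genes differed either way. Of the 14 genes, 8 passed 2-fold in all 9 settings (the main one included), and 13 in every setting that gave them a ratio. Herc6 was the exception, passing in 5 of 9. The scalings moved the median of all genes by under 0.1 on the log2 scale. Without probe sets of shared or cross-matching design, Ly6e passed 2-fold at 1.25. The recomputed promoter shares were chosen after seeing the data. Outside the list the share at least 2-fold higher was 8.79% to 11.7% with the response element letters, and 3.18% to 5.70% without, over the 8 alternatives.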
